A study of Mus musculus with 4 samples.

Results

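The 10 genes described here encode ligands, receptors and binding proteins of the insulin-like growth factor (IGF) system, and they are 10 of the 31053 genes in the count matrix. They were taken by name, with earlier results of these data known. They are the ligands Igf1 and Igf2, the receptors Igf1r and Igf2r, and the binding proteins Igfbp2, Igfbp3, Igfbp4, Igfbp5, Igfbp6 and Igfbp7. All 10 were found, and all 10 reached at least 10 UMIs per 1000000 in some class of cells.

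IGF1 and IGF2 are secreted peptides that signal through IGF1R, a tyrosine kinase receptor on the cell surface. IGF2R binds IGF2 and carries it into the cell for degradation, and it also sorts lysosomal enzymes. IGF-binding proteins hold the ligands in the extracellular space and can block or prolong their action, and proteases that cut binding proteins set the ligands free. In the growth plate, IGF signalling is known for its part in longitudinal bone growth and in the enlargement of chondrocytes as they become hypertrophic, and in bone it acts on osteoblasts.

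The cells came from 1 library, prepared from both tibiae of 1 male mouse at P6. The mouse carried Col10a1Cre, the Rosa26-Tdtomato reporter, 1 deleted allele of Irx3 (Irx3 +/Δ) and 1 of Irx5 (Irx5 +/-), and it served as the Irx3/5 heterozygous control. Col10a1Cre is driven by a gene of hypertrophic chondrocytes (HCs), so that HCs and their descendants carry the reporter. The reporter transcript also contains the WPRE element. The study writes the Irx3 allele as ΔHC, its form for alleles deleted by Col10a1Cre. The labels give 4 entries for this animal, which were counted together as 1 library, so there is no replicate, no p-value and no test. Levels are sums of unique molecular identifiers (UMIs, which tag captured transcripts one by one) over the cells of a class, given as counts per 1000000 UMIs of that class (CPM). The 95% Poisson intervals in brackets cover counting error only and say nothing of the spread between mice. Shares of cells with a UMI were taken after each cell had been thinned to 5000 UMIs, with 95% Clopper-Pearson intervals. Cells with fewer than 5000 UMIs were left out of these shares, unless a share is given as before thinning.

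After filtering, 8255 cells with a median of 13957 UMIs remained, and 7982 of them fell into 25 classes of at least 20 cells. Classes carry the suffix -like where markers named them, and the name of a leading gene otherwise. Chondrocytes made up 1952 cells in 8 classes, osteogenic or stromal cells 1423 cells in 4 classes, vessel wall cells 884 cells in 4 classes and blood cells 3723 cells in 9 classes. In the resting chondrocyte-like class 5 of 6 resting markers reached 10 CPM, in the basophil or mast cell-like class 9 of 13 did with 1 marker at 0, and in the other named classes no marker was at 0. The members and the other genes of the IGF pathway were kept out of the clustering. Thinned shares rest on 605 of 607 erythroid-like and 227 of 234 marrow stromal progenitor-like cells. They rest on 492 of 553 endothelial-like, 140 of 157 sinusoidal endothelial-like and 91 of 100 pericyte or smooth muscle-like cells. The conventional dendritic-like class of 113 cells stood apart from the other blood classes, with 6425 CPM of Col1a1, the main bone collagen, and 22.1% of its cells marked as doublets. The part of these in its Igfbp levels was not tested.

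Every member lies on an autosome and was placed on GRCm38, the build of the mm10 files, with the GENCODE M21 annotation. Igf1 lies on chromosome 10 from 87858265 to 87937042, Igf2 on chromosome 7 from 142650766 to 142666816 and Igf1r on chromosome 7 from 67952827 to 68233668. Igf2r lies on chromosome 17 from 12682406 to 12769664, Igfbp6 on chromosome 15 from 102144362 to 102149511 and Igfbp7 on chromosome 5 from 77349240 to 77408041. Igfbp2 (72824503 to 72852474, plus strand) and Igfbp5 (72857932 to 72874884, minus strand) are neighbours on chromosome 1. Igfbp3 (7206086 to 7213923) and Igfbp4 (99041244 to 99054392) lie far apart on chromosome 11.

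The Igf2 counts need care, because another annotated gene covers it on the same strand. Gm49394, which joins Igf2 to sequence upstream of it, shares 3596 of the 5723 exonic bases of Igf2, or 62.8%. The counter leaves out reads that fit more than 1 gene, and Gm49394 had 0 UMIs in the cells kept beside 7782 of Igf2. How many Igf2 reads were lost in this way was not tested, so the Igf2 values are compared between classes and not with other genes. Antisense genes overlap Igf1 (Igf1os, 4 UMIs), Igf2 (Igf2os, 549 UMIs) and Igf2r (Airn, 2935 UMIs), and they share 0, 98 and 0 exonic bases with them.

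Igfbp4 and Igfbp5 are shown with the sequence before their transcription start because both had their highest level in the same class, the marrow stromal progenitor-like cells, and both were lower at each step from there to mature osteoblasts. Igf1 met the same rule, but all 250 bases of its window are exon in M21, so no sequence of it is shown. The shared class depended on the processing. At a limit of 5% mitochondrial UMIs, Igf1 and Igfbp5 were highest in periosteal or tendon fibroblast-like cells, and Igfbp4 was not. The sequences are from RefSeq on GRCm38.p6, read 5′ to 3′ on the strand of the gene. The Igfbp4 window is chr11:99040994-99041243 (plus strand) and the Igfbp5 window is chr1:72874885-72875115 (minus strand), without 19 bases that M21 counts as exon. Capitals mark matches to TATAAA or to CANNTG, the E-box.
Igfbp4: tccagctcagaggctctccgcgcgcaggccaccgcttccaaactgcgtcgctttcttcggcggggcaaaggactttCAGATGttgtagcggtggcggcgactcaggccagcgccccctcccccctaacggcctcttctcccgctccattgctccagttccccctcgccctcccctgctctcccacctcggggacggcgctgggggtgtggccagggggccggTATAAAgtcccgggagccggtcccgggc
Igfbp5: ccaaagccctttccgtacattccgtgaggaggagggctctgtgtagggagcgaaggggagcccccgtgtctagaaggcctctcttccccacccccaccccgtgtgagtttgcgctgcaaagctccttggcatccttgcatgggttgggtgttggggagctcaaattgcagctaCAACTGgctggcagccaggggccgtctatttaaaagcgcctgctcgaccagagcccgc

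TATAAA began 28 bases before the Igfbp4 start and was found in 12.4% of the 32841 promoter windows of 250 bases searched on both strands. An E-box began 174 bases before the Igfbp4 start and 77 bases before the Igfbp5 start, and 66.2% of all windows hold one. Distances are to the RefSeq start, so that of Igfbp5 includes the 19 exon bases not shown. The other motifs searched on both strands were TGTGGT for RUNX factors (14.05% of windows), CCCNNGGG for EBF factors (11.8%) and TTGCNNAA for C/EBP factors (9.57%). None of these 3 had a match in either window, and the E-box was the 1 motif that both share.

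Sources of the members fell into 3 tissues. Of the 10 members, 4 had their highest class in the osteogenic or stromal lineage, 3 in chondrocytes, 3 in the vessel wall and 0 in blood cells. Of the 12355 genes with at least 10 CPM in some class, 13.1% had their highest class in the osteogenic or stromal lineage, 15% in chondrocytes (1849 genes), 21.8% in the vessel wall and 50.2% in blood cells. The level in the highest class was at least 2-fold above the next class for 3 members, Igfbp2, Igfbp4 and Igfbp6, where 14.3% of all these genes passed the same limit. Igf1 lay just under it at a ratio of 1.98.

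**Figure D1:**
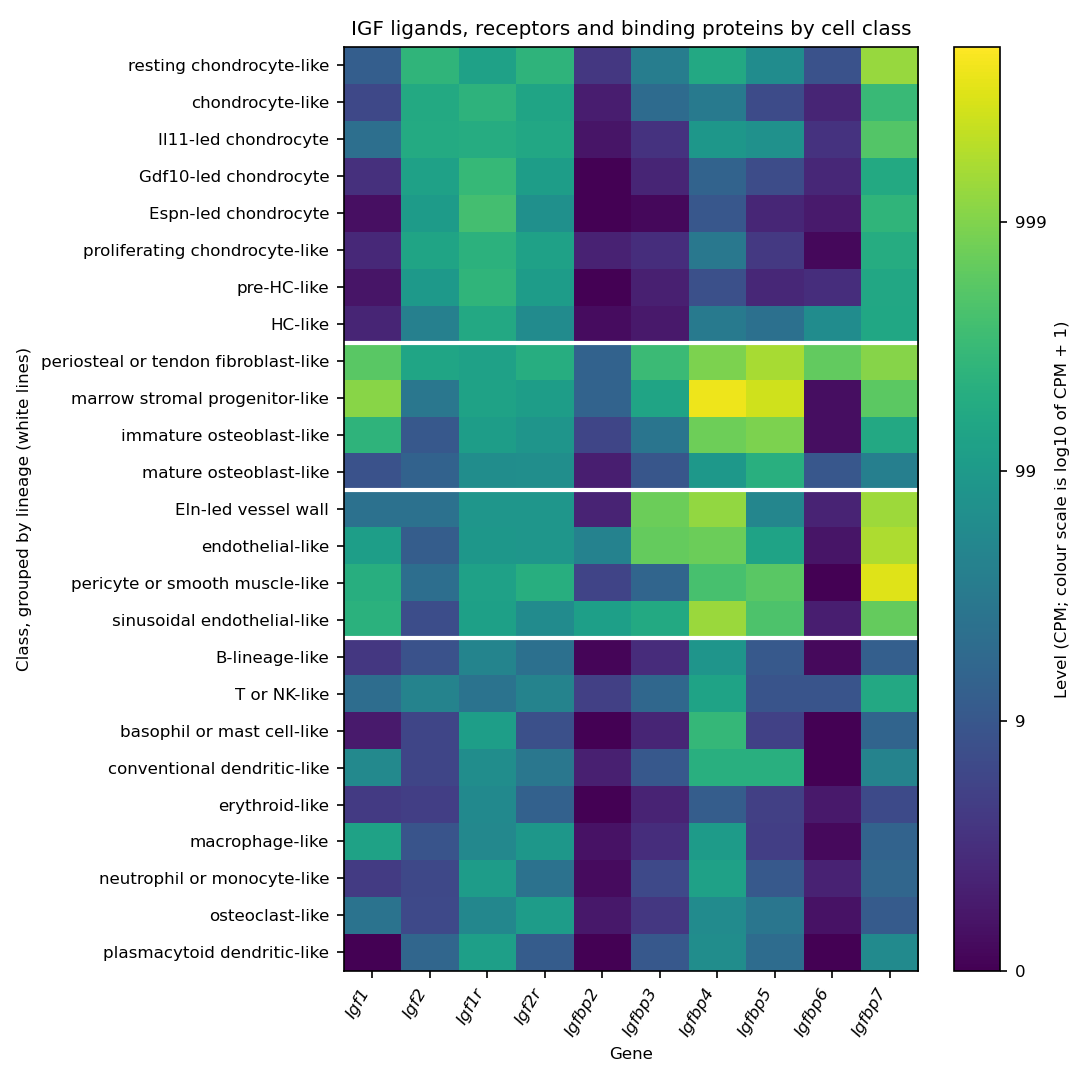
Levels of the 10 members (columns) in the 25 classes (rows, grouped by lineage, white lines between the lineages), coloured by log10 of CPM + 1. Igf1, Igfbp4 and Igfbp5 are brightest in the marrow stromal progenitor-like row (1108, 3974 and 2687 CPM), Igf2 in the chondrocyte rows (up to 258 CPM) and Igfbp7 in the pericyte or smooth muscle-like row (3266 CPM).

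The lineage that held the UMIs of a member gives the same question another way, since it also counts how many cells each class has. Chondrocytes held 84.3% of the Igf2 UMIs in classes, 61.2% of Igf1r and 54.2% of Igf2r. Osteogenic or stromal cells held 82.1% of Igfbp5, 80.5% of Igfbp6, 70.3% of Igf1 and 52.7% of Igfbp4. Vessel wall cells held 77.5% of Igfbp2, 72.1% of Igfbp3 and 46.3% of Igfbp7. Over all genes, chondrocytes held 35.3% of the UMIs in classes, blood cells 41.0%, osteogenic or stromal cells 15.7% and vessel wall cells 7.96%. Blood cells held at most 22.6% of any member, which was Igf1r. The shares depend on how many cells of each type the digestion released.

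**Figure D2:**
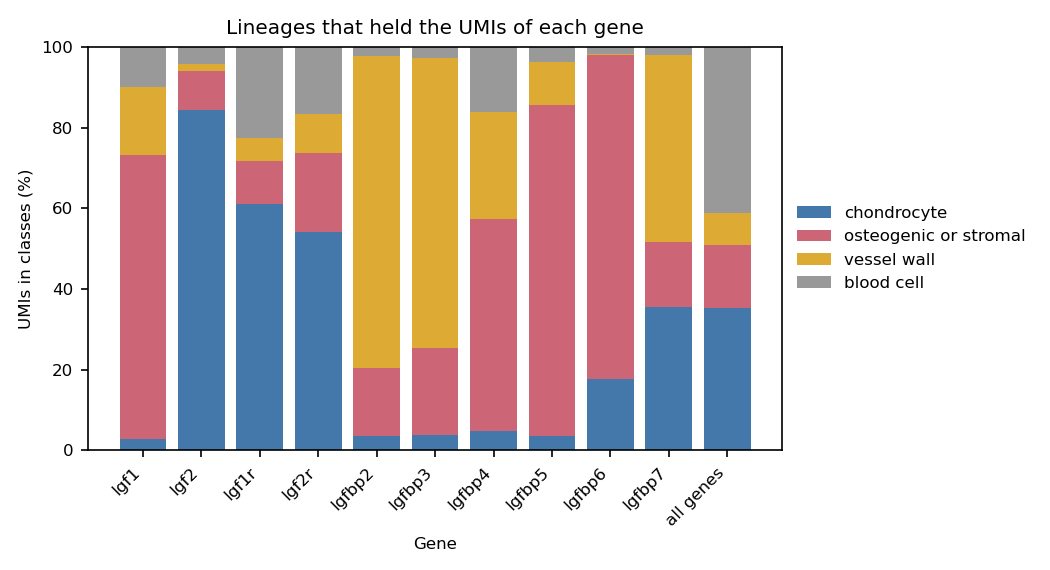
Percent of each member's UMIs in classes that came from each lineage (stacked colours, 0 to 100%), with all genes together in the last bar. Chondrocytes hold 84.3% of Igf2, osteogenic or stromal cells 82.1% of Igfbp5 and vessel wall cells 77.5% of Igfbp2, against 35.3%, 15.7% and 7.96% of all UMIs.

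The ligands Igf1 and Igf2 came from different cells. Igf1 stood at 1108 CPM (1067 to 1149) in marrow stromal progenitor-like cells, the Cxcl12, Adipoq and Lepr expressing cells of the marrow, at 559 CPM (533 to 586) in periosteal or tendon fibroblast-like cells and at 257 CPM (243 to 270) in immature osteoblast-like cells. These 3 intervals did not overlap. Sinusoidal endothelial-like cells (228 CPM, 208 to 251) overlapped with the immature osteoblast-like class above and with pericyte or smooth muscle-like cells (206 CPM) below. Macrophage-like cells (132 CPM) and endothelial-like cells (116 CPM) followed, again with overlapping intervals. Mature osteoblast-like cells were at 7.63 CPM (5.97 to 9.61), and the 8 chondrocyte classes lay between 0.434 and 21.8 CPM.

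The share of cells that held Igf1 did not follow the order of the levels throughout. After thinning, 90.7% of marrow stromal progenitor-like cells had an Igf1 UMI (86.2 to 94.2), against 65.8% of fibroblast-like, 57.1% of sinusoidal endothelial-like and 47.3% of pericyte or smooth muscle-like cells. Immature osteoblast-like cells (45.7%) came after these, and endothelial-like cells (40.2%) came before macrophage-like cells (33.5%). In erythroid-like cells, which should lack the gene, the share was 1.32%, at a median depth of 13779 UMIs beside 9771.5 in the stromal class. Mature osteoblast-like cells, at 1.29%, were at that background. Within the stromal class the median cell had 915 CPM and the cell at the 90th percentile 2330 CPM. In immature osteoblast-like cells the median was 80.7 CPM and the 90th percentile 996 CPM.

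Igf2 was highest in resting chondrocyte-like cells, at 258 CPM (232 to 287), followed by the Il11-led class (181 CPM) and the chondrocyte-like class (178 CPM), whose intervals overlapped. The periosteal or tendon fibroblast-like class, at 147 CPM (133 to 161), was the 1 class outside cartilage above 50 CPM. Other osteogenic classes were low, with 28.3 CPM in marrow stromal progenitor-like cells, 13.6 CPM in mature and 9.47 CPM in immature osteoblast-like cells. The erythroid-like class had 3.90 CPM. After thinning, 67.8% of resting chondrocyte-like cells had an Igf2 UMI, against 2.31% of erythroid-like cells, at median depths of 10690 and 13779 UMIs.

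Both receptors were found in most classes, with their highest levels in cartilage. Igf1r reached 390 CPM (372 to 408) in the Espn-led chondrocytes, whose leading genes include Bnip3 and Egln1, genes known to respond to low oxygen. Under several alternatives another chondrocyte class was highest, as given in the closing section. Igf1r stood at 301 CPM in Gdf10-led chondrocytes, which shared the leading genes Cox4i2 and Il17b with the Espn-led class. Pre-HC-like cells had 258 CPM and chondrocyte-like cells 244 CPM. The last of these overlapped with pre-HC-like cells and with proliferating chondrocyte-like cells (234 CPM). In all, 16 of 25 classes had at least 100 CPM of Igf1r. Stromal progenitor-like, pericyte, resting chondrocyte, fibroblast and sinusoidal endothelial classes lay together between 127 and 135 CPM. The lowest levels were in T or NK-like cells (24.3 CPM from 6 UMIs) and B-lineage-like cells (45.2 CPM).

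After thinning, 83.5% of Espn-led chondrocytes (77.3 to 88.6) had an Igf1r UMI, against 49.8% of marrow stromal progenitor-like cells and 21.8% of erythroid-like cells. The erythroid-like class, at 55.1 CPM, had a higher share for Igf1r than for the other members, so that shares near it are not read as expression here. The median depths were 24933.5, 9771.5 and 13779 UMIs.

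Igf2r was highest in resting chondrocyte-like cells at 253 CPM (227 to 281), next to pericyte or smooth muscle-like cells at 207 CPM (180 to 236) and periosteal or tendon fibroblast-like cells at 201 CPM (185 to 217). The intervals of neighbours overlapped, while those of resting chondrocyte-like and fibroblast-like cells did not. Osteoclast-like cells, which resorb bone with lysosomal enzymes, led the blood classes at 109 CPM (99.3 to 120), followed by macrophage-like cells at 89.9 CPM. The lowest classes were basophil or mast cell-like cells at 6.97 CPM and plasmacytoid dendritic-like cells at 11.1 CPM.

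Among the binding proteins, Igfbp4, which blocks IGF action until a protease cuts it, stood at 3974 CPM (3898 to 4052) in marrow stromal progenitor-like cells, 2.89-fold above sinusoidal endothelial-like cells at 1374 CPM with 1 CPM added. Eln-led vessel wall cells (1257 CPM), fibroblast-like cells (927 CPM), immature osteoblast-like cells (765 CPM) and endothelial-like cells (749 CPM) came next, and the last pair overlapped. Every cell of the stromal and of the sinusoidal class had an Igfbp4 UMI before thinning, and 99.1% and 100% had one after it. In chondrocytes it ranged from 7.06 CPM in pre-HC-like to 172 CPM in resting chondrocyte-like cells.

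Igfbp4 was also the binding protein found in blood cells. Basophil or mast cell-like cells had 289 CPM (272 to 307), with a UMI in 64.6% of thinned cells (57.2 to 71.6) against 4.96% in erythroid-like cells, at median depths of 18103.5 and 13779 UMIs. Neutrophil or monocyte-like cells had 128 CPM, with 250 CPM in the cluster led by Elane, a gene of granulocyte precursors, and 28.6 and 13.8 CPM in the clusters led by Il1b and Tnf. Among B-lineage-like cells, the cluster led by Vpreb1, a gene of precursor B cells, had 119 CPM and the clusters led by Igkc and Iglc1 had 31.9 and 16.8 CPM. Collagen Col1a1 in the basophil or mast cell-like class was 211 CPM, beside 171 CPM in erythroid-like cells.

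Igfbp5, which binds to bone mineral and matrix as well as to IGFs, followed the osteogenic and stromal classes. It was at 2687 CPM (2624 to 2751) in marrow stromal progenitor-like cells, 1633 CPM (1588 to 1679) in fibroblast-like cells, 935 CPM (909 to 961) in immature and 214 CPM (205 to 223) in mature osteoblast-like cells. Pericyte or smooth muscle-like cells had 556 CPM and sinusoidal endothelial-like cells 469 CPM, against 140 CPM in other endothelial-like cells. In the Eln-led vessel wall class it was at 49.5 CPM. The conventional dendritic-like class had 216 CPM, the class with Col1a1 and doublets named above, while the remaining 8 blood classes lay between 3.84 and 27.4 CPM.

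Igfbp6, a binding protein that prefers IGF2, was the member with the largest ratio between its highest and next class. Periosteal or tendon fibroblast-like cells had 654 CPM (626 to 683) and 77.0% of all its UMIs in classes, 10.3-fold above the next class with 1 CPM added. Within them, the cluster led by Mfap5 had 961 CPM and the cluster led by Aspn had 112 CPM. The next class was HC-like at 62.6 CPM (56.5 to 69.1), where 17.0% of thinned cells (11.9 to 23.3) had a UMI, against 0.165% of erythroid-like cells. The median depths of these classes were 34247 and 13779 UMIs. Pre-HC-like cells had 2.04 CPM. All other classes were under 10 CPM, and the marrow stromal progenitor-like class had 1 UMI.

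The other 3 binding proteins were led by cells of vessels. Igfbp2 stood at 121 CPM (106 to 137) in sinusoidal endothelial-like cells and at 43.1 CPM (38.3 to 48.4) in endothelial-like cells, a 2.76-fold ratio with 1 CPM added, and no other class reached 15 CPM. After thinning, 40.0% of sinusoidal endothelial-like cells had a UMI, while 0 of 605 erythroid-like cells had one, so that their share may be as high as 0.496% by the limit of 3 counts, or 0.608% by the Clopper-Pearson interval. The median depth was 8661 UMIs in the sinusoidal class and 13779 in the erythroid-like class.

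Igfbp3 was at 741 CPM (680 to 805) in Eln-led vessel wall cells, a class led by the elastic fibre genes Eln and Fbln5 together with Gja4 and Sema3g, genes known from arteries. Endothelial-like cells followed at 662 CPM (643 to 682), with an overlapping interval. This class was mixed: its cluster led by Gpihbp1 had 1287 CPM and its cluster led by Emcn had 81.4 CPM. Fibroblast-like cells had 326 CPM, again with 650 CPM in the Aspn-led and 142 CPM in the Mfap5-led cluster, the reverse of the order for Igfbp6. Sinusoidal endothelial-like cells had 178 CPM and marrow stromal progenitor-like cells 142 CPM.

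Igfbp7, which binds IGFs weakly and is known from the vessel basement membrane, reached 3266 CPM (3158 to 3378) in pericyte or smooth muscle-like cells. It was found in 100% of the 91 of these cells that could be thinned. Endothelial-like cells had 1778 CPM, with 2705 CPM in the Gpihbp1-led and 918 CPM in the Emcn-led cluster. The Eln-led class (1447 CPM) and resting chondrocyte-like cells (1361 CPM) had overlapping intervals. Igfbp7 was the binding protein with the widest reach in cartilage, where all 8 classes had at least 159 CPM. Blood classes lay between 5.85 CPM in erythroid-like cells and 57.1 CPM, apart from T or NK-like cells, whose 170 CPM came from 42 UMIs in 30 cells. The T or NK-like class also had 4704 CPM of the cartilage collagen gene Col2a1 and 37905 CPM of the haemoglobin gene Hbb-bs. The part of RNA from other cells in its levels was not tested.

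The order within cartilage was next read along the classes that markers tie to a stage. From resting to proliferating to pre-HC-like to HC-like cells, Igf2 stood at 258, 142, 99.1 and 39.7 CPM, and the intervals of neighbours did not overlap. Igf2r stood at 253, 129, 110 and 60.3 CPM, and the intervals of the proliferating and pre-HC-like classes overlapped. Igf1r was lowest at the start, with 131, 234, 258 and 171 CPM, and the proliferating and pre-HC-like classes overlapped. Igfbp7 stood at 1361, 195, 165 and 159 CPM, and the last 2 overlapped. Igfbp4 (172, 28.9, 7.06 and 32.7 CPM) and Igfbp5 (62.3, 3.09, 1.57 and 22.4 CPM) were lowest in pre-HC-like cells and higher again in HC-like cells. Igfbp6 was at 7.42, 0.206, 2.04 and 62.6 CPM. The resting chondrocyte-like class also had 1242 CPM of Col1a1, against 111 to 154 CPM in the other 3, and its part in the Igfbp values was not tested. Of the 10 leading genes of the resting chondrocyte-like class, 2 were resting markers, Sfrp5 and Ucma. Prg4 and Omd were among the rest, and whether this class is a stage of the growth plate was not tested.

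**Figure D3:**
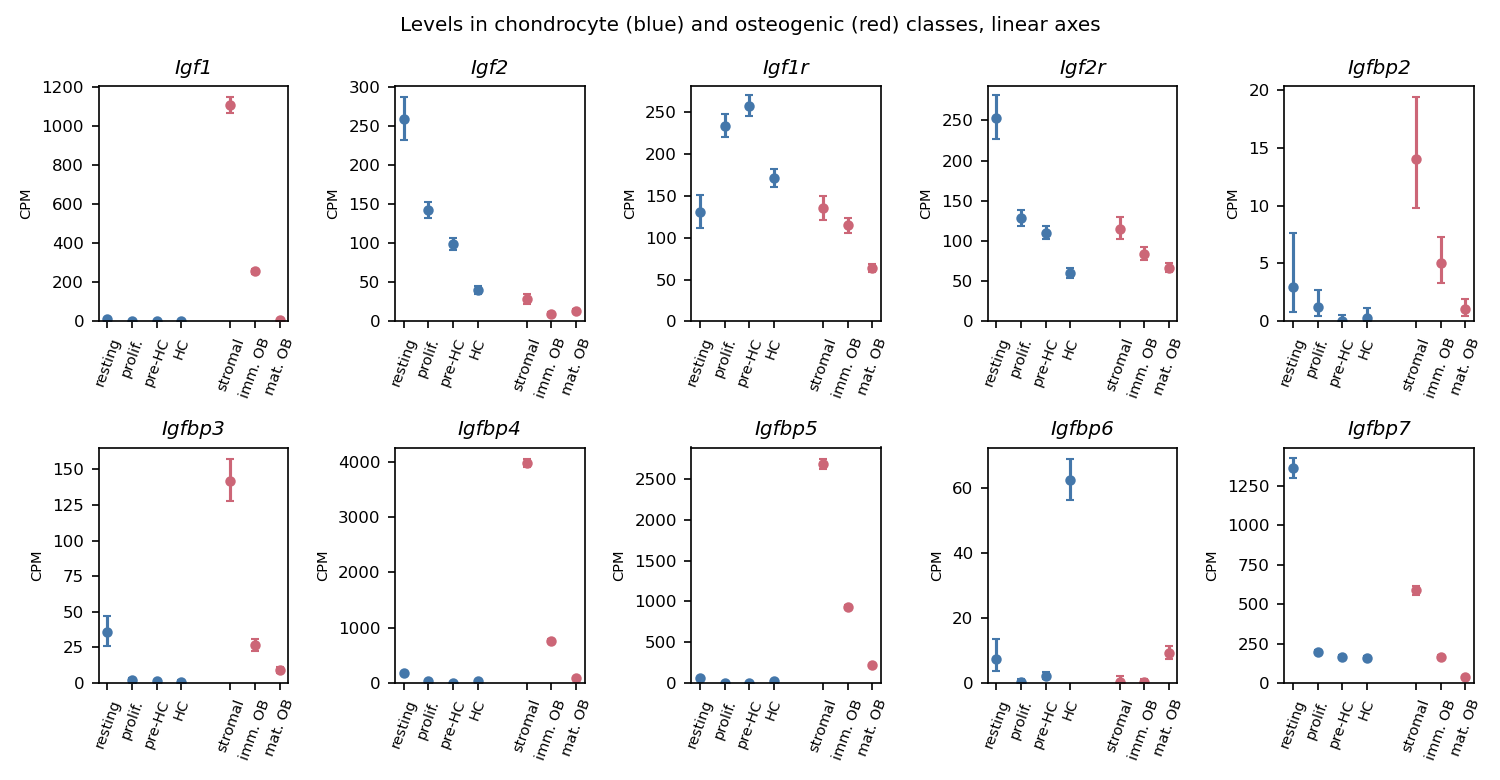
CPM of each member (1 panel per gene, linear axis from 0) in 4 chondrocyte classes (blue) and 3 osteogenic classes (red), with bars for the 95% Poisson interval. Igf2 goes from 258 to 39.7 CPM between resting and HC-like cells, and Igf1 from 1108 to 7.63 CPM between stromal progenitor-like and mature osteoblast-like cells.

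Among the osteogenic classes, the marrow stromal progenitor-like, immature and mature osteoblast-like cells were set side by side. They had 1108, 257 and 7.63 CPM of Igf1, 3974, 765 and 92.9 CPM of Igfbp4, and 2687, 935 and 214 CPM of Igfbp5. Igfbp7 stood at 588, 167 and 37.9 CPM, and Igfbp3 at 142, 26.4 and 8.80 CPM. All 5 genes were highest in the stromal class and lowest in the mature class, and no neighbouring intervals overlapped. Igfbp2 had the same order at lower levels. Igf2 was lowest in the immature class instead, and Igfbp6 was highest in the mature class. The share of all genes with the order of these 5 was not counted. The receptors differed less than those 5 genes, with 135, 115 and 63.8 CPM of Igf1r and 115, 84.3 and 66.7 CPM of Igf2r. The mature class was near the erythroid-like class for Igf1r, which had 55.1 CPM there. A UMI was found in 23.7% of thinned mature and 21.8% of thinned erythroid-like cells, so the mature share is not read as expression. Col1a1 took 61227 CPM in the mature class, 4489 CPM in the immature class and 1288 CPM in the stromal class, and its part in the CPM of other genes was not tested.

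UMIs of ligand and receptor were also counted in the same cells, beside erythroid-like cells as background. After thinning, 45.4% of marrow stromal progenitor-like cells (38.8 to 52.1) had UMIs of both Igf1 and Igf1r, where 90.7% had the former and 49.8% the latter. In erythroid-like cells 0.331% had both. For Igf1 and Igfbp5 the share was 81.5% (75.8 to 86.3) in the stromal class, where 87.2% had Igfbp5, and 0.165% in erythroid-like cells. Whether the genes were found together more often than their single shares give was not tested. In chondrocyte-like cells, 38.5% (34.1 to 43.0) had both Igf2 and Igf1r, against 10.4% (6.40 to 15.8) of HC-like cells and 0.331% of erythroid-like cells, at median depths of 18033, 34247 and 13779 UMIs. Igf2 by itself was found in 56.8% of chondrocyte-like and 15.9% of HC-like cells, and Igf1r in 66.7% and 54.4%. In Espn-led chondrocytes, 0 of 182 thinned cells had both Igf1 and Igf1r, and the class had 2 UMIs of Igf1 before thinning.

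For each member, the 3 genes most like it in level across the 25 classes were taken from 7009 genes, as Pearson's r of log2(CPM + 1). The points are classes of 1 library, so r describes these classes and carries no test. H19, the gene next to Igf2 that is expressed from the other parental copy, was most like Igf2 (r = 0.987), followed by 1500015O10Rik (0.957) and Thbs3 (0.951). Airn, the antisense gene that overlaps Igf2r, was most like Igf2r (r = 0.944), followed by Kdelc2 (0.882) and Slc6a8 (0.878). Igf2r and Airn overlap on opposite strands with 0 shared exonic bases, and whether reads of either were assigned to the other was not tested.

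The genes most like Igf1 were Itga9 (r = 0.896), Gas6 (0.869) and Mmp14 (0.867), the last a membrane metalloprotease. Those most like Igf1r were Ak4 (0.866), Nog (0.865) and Ldlrad3 (0.859). Igfbp2 was most like Bace2 (0.906), Chst2 (0.886) and Plpp3 (0.885). Igfbp3 was most like Ramp2 (0.93), Hmcn1 (0.912) and Clec14a (0.907), all highest in the Eln-led vessel wall class. Igfbp4 was most like Wsb1 (0.925), BC005561 (0.914) and Hipk3 (0.912). Igfbp5 was most like Serping1 (0.915), Cyp1b1 (0.911) and Lhfp (0.908). Igfbp6 was most like Thbs4 (0.871), Angptl1 (0.866) and Sbspon (0.793). Igfbp7 was most like Cavin1 (0.936), Crim1 (0.929) and Pja2 (0.919). Among the members themselves, Igf1 and Igfbp5 were most alike (r = 0.83), then Igfbp3 and Igfbp4 (0.82), Igfbp4 and Igfbp5 (0.811), and Igf1 and Igfbp4 (0.805).

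HC-derived osteogenic cells, with more than 14 WPRE UMIs, were compared with the other cells of the same class. The study set this cutoff to match its measured frequency of tdTomato-positive HCs. Here 101 of 183 HC-like cells (55.2%) passed it. The other cells may therefore include HC descendants under the cutoff, and how many was not tested. Since Col10a1Cre acts on both the reporter and the Irx3 allele, HC lineage and loss of Irx3 cannot be told apart here. The comparison used 42 HC-derived and 192 other marrow stromal progenitor-like cells, 85 and 357 immature osteoblast-like cells, and 149 and 317 mature osteoblast-like cells. The fibroblast-like class held 1 HC-derived cell of 281 and was left out. Ratios are log2 of HC-derived over other cells with 1 CPM added, and their means weight the 3 classes equally. Of the 10 members, 7 had at least 50 CPM in some of these groups. Of those, 1 was at least 2-fold lower in HC-derived cells, where 1.20% of the 3914 genes compared passed that limit, and 0 were at least 2-fold higher, where 0.690% passed it. Under 9 of the 14 alternatives, 2 members were at least 2-fold lower. The median of the mean ratios was 0.05 over the 7 members and 0.05 over all 3914 genes.

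Igfbp5 was the member past the limit, with a mean log2 ratio of -1.17 (-1.25 to -1.08). The study also lists Igfbp5 as higher in non-HC-derived osteoblasts, from P6 and P56 cells together. Its P6 cells are from the library used here, so the 2 results are not independent. HC-derived cells had 2269 CPM against 2789 CPM in the stromal class, 409 against 1083 CPM in the immature class and 81.4 against 285 CPM in the mature class, and the intervals did not overlap in any of the 3. These intervals do not cover the spread between cells. In the mature class, 84 of the 269 Igfbp5 UMIs of HC-derived cells came from 1 cell. There, a UMI was found in 25.5% of HC-derived and 59.3% of other cells before thinning, at median depths of 18984 and 17649 UMIs. Igf1 lay just outside the limit at -0.99 (-1.23 to -0.75), and over the alternatives it lay between -2.43 and 0.28, the latter from 1 class. HC-derived cells had 687 against 1210 CPM in the stromal class and 76.8 against 307 CPM in the immature class, while the mature class was low in both groups (6.96 and 7.997 CPM). An Igf1 UMI was found in 27.1% of the HC-derived and 59.1% of the other immature osteoblast-like cells before thinning, at median depths of 11390 and 10656 UMIs.

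Igfbp3 was the member with the widest range between classes. In immature osteoblast-like cells, HC-derived cells had 86.0 CPM and the others 9.53 CPM, a log2 ratio of 3.05 (2.56 to 3.54). A UMI was found in 31 of the 85 HC-derived and 33 of the 357 other cells, and the highest single HC-derived cell held 14 of 102 UMIs. In the stromal class the values were 192 and 130 CPM, and in the mature class 3.63 and 11.6 CPM. The latter came from 12 and 71 UMIs, with 21 of the 71 in 1 cell. Among endothelial genes in the immature class, Pecam1 was at 13.5 CPM in HC-derived and 25.7 CPM in other cells, and Cdh5 at 8.43 and 16.2 CPM, and their part in the Igfbp3 values was not tested. Over the alternatives the mean log2 ratio of Igfbp3, 0.72 here, lay between -2.38 and 1.11.

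Igfbp4, Igf1r, Igf2r and Igfbp7 had mean ratios between 0.03 and 0.17. For Igfbp4 it was 0.17 (0.09 to 0.24), and over the alternatives it lay between -0.14 and 0.22. HC-derived cells had 3994 against 3969 CPM of Igfbp4 in the stromal, 862 against 738 in the immature and 104 against 86.7 in the mature class. For Igf1r it was 0.03 (-0.15 to 0.20) and for Igf2r 0.05 (-0.13 to 0.24). Differences inside these intervals could not be told apart from none by the counts, and the intervals cover counting error only. Igf2, Igfbp2 and Igfbp6 were under 50 CPM in all 6 groups.

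The 2 groups also differed in other genes of the same classes, so the HC-derived cells were not matched in state. Postn, a gene of periosteum and early osteoblasts, was at 158 CPM in HC-derived and 830 CPM in other immature osteoblast-like cells. Bglap, the gene for osteocalcin, was at 2806 and 13533 CPM in the mature class. The study lists other mature osteoblast markers, Ibsp and Car3, as higher in HC-derived osteoblasts of P6 and P56 together. Lepr, the leptin receptor of marrow stroma, was at 192 and 65.3 CPM in the immature class. Cxcl12, also a gene of marrow stroma, differed less there, at 673 and 606 CPM. The genes given with values here were chosen after their values were seen. Their part in the Igf1, Igfbp3 and Igfbp5 ratios was not tested.

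**Figure D4:**
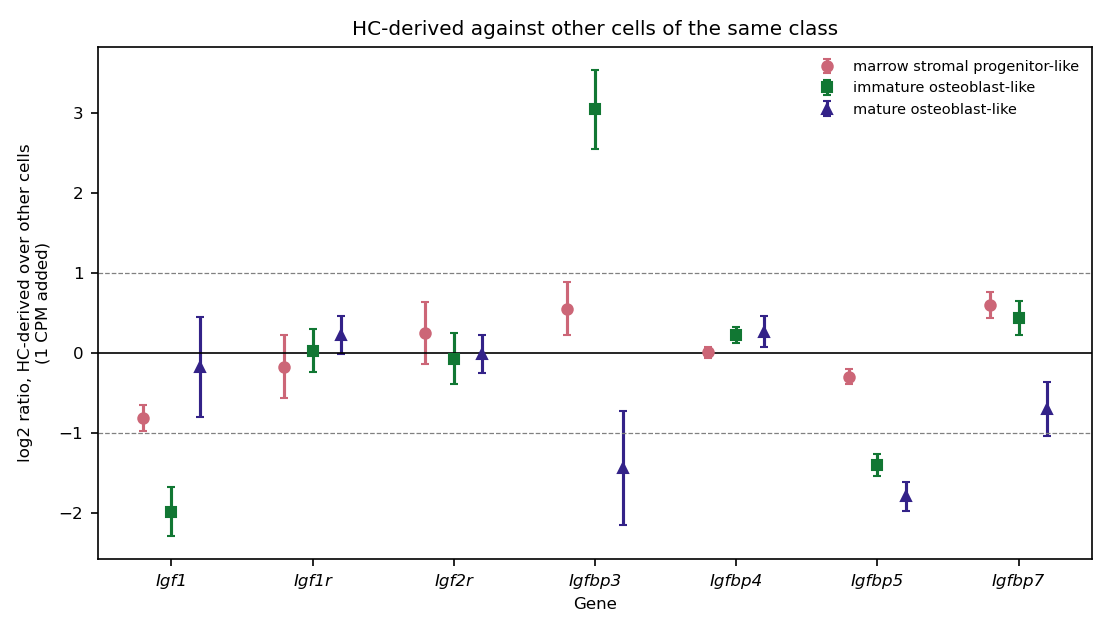
Log2 ratio of HC-derived over other cells (1 CPM added) for the 7 members with at least 50 CPM, in 3 classes (symbols), with 95% counting intervals and dashed lines at 2-fold. Igfbp5 lies below 0 in all 3 classes (mean -1.17), and Igfbp3 runs from -1.44 in mature to 3.05 in immature osteoblast-like cells.

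Around the members, 24 other genes of the pathway were listed, and 20 of them reached 10 CPM in some class. Their highest class was in chondrocytes for 7, in osteogenic or stromal cells for 6, in the vessel wall for 5 and in blood cells for 2. The highest class was at least 2-fold above the next for 3, namely Ghr, Insr and Pappa2. Over all genes these shares were 15% for chondrocytes, 13.1% for osteogenic or stromal cells, 21.8% for the vessel wall, 50.2% for blood cells and 14.3% for the 2-fold limit, so that 3 of 20 was near the background. Igfbp1, Igfbpl1, Igfals and Irs4 stayed under 10 CPM in every class, and Igfals, which carries circulating IGF in a complex with a binding protein, had 59 UMIs in all classes.

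Of the proteases that cut binding proteins, Pappa, which cuts IGFBP4, stood at 308 CPM (287 to 330) in marrow stromal progenitor-like cells, the class with the most Igfbp4, and at 176 CPM (165 to 188) in immature osteoblast-like cells. Pappa2, which cuts IGFBP3 and IGFBP5, stood at 119 CPM (102 to 139) in resting chondrocyte-like cells and 31.2 CPM in fibroblast-like cells. Htra1 was at 480 CPM in Eln-led vessel wall cells and 421 CPM in fibroblast-like cells, with overlapping intervals, and at 221 CPM in HC-like cells. Of the stanniocalcins, which inhibit the PAPP-A proteases, Stc1 was led by the vessel wall, with 416 CPM in sinusoidal endothelial-like cells and 352 CPM in the Eln-led class. Stc2 was led by cartilage, with 78.7 CPM in HC-like and 75.8 CPM in Espn-led cells.

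On the receptor side, Ghr, the growth hormone receptor, whose signal raises Igf1, was at 121 CPM (108 to 135) in marrow stromal progenitor-like cells, the class with the most Igf1, and 46.0 CPM in resting chondrocyte-like cells. Socs2, its feedback inhibitor, was at 93.0 CPM in T or NK-like cells from 23 UMIs and 83.8 CPM in sinusoidal endothelial-like cells. The T or NK-like class is the one with Col2a1 and Hbb-bs named above. Insr, the insulin receptor, was at 116 CPM in sinusoidal endothelial-like cells and 42.7 CPM in endothelial-like cells. The adaptor Irs1 was at 95.5 CPM in marrow stromal progenitor-like and 78.8 CPM in Espn-led cells, and Irs2 at 134 CPM in pericyte or smooth muscle-like cells and 115 CPM in marrow stromal progenitor-like cells. Shc1 reached 66.0 CPM in the stromal class, and Gab1 65.0 CPM in sinusoidal endothelial-like cells. Grb10, which dampens the receptor, was led by cartilage at 391 CPM in Gdf10-led cells, and the related Grb14 by pre-HC-like (129 CPM) and HC-like cells (102 CPM).

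Of the genes that act on Igf2 RNA or share its imprinted regions, H19 was at 3673 CPM in resting chondrocyte-like cells and Airn at 80.1 CPM in the same class. The RNA-binding Igf2bp3 was at 87.7 CPM in B-lineage-like cells and between 69.8 and 81.7 CPM in the next 4 blood classes, and Igf2bp2 at 74.6 CPM in the stromal class. Igf2bp1 and Igf2os stayed between 10 and 20 CPM in their highest class. In HC-derived immature osteoblast-like cells, Htra1 was at 293 CPM against 142 CPM in the other cells. It was at 138 against 70.2 CPM in the mature class and at 223 against 240 CPM in the stromal class. Pappa was at 375 against 291 CPM in the stromal, 234 against 160 in the immature and 24.8 against 4.90 in the mature class. The log2 ratios were 0.36, 0.54 and 2.13, so only the mature class was past 2-fold by itself. There, 82 UMIs came from 20 of 149 HC-derived cells, with 21 in 1 cell. The mean of 1.01 (0.81 to 1.21) was just past the 2-fold limit that 0.690% of all genes compared passed. Such shifts were not particular to Htra1 and Pappa. Over the 24 pathway genes the mean log2 ratio ran from -0.89 for Pappa2 to 1.11 for Igf2bp1. Igf2bp3 was at 0.76, Htra1 at 0.63, Igf2bp2 at 0.61 and H19 at -0.47. Pappa2, Igf2bp1 and Igf2bp3 were under 50 CPM in all groups compared. None of these ratios was taken under the alternatives.

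**Figure D5:**
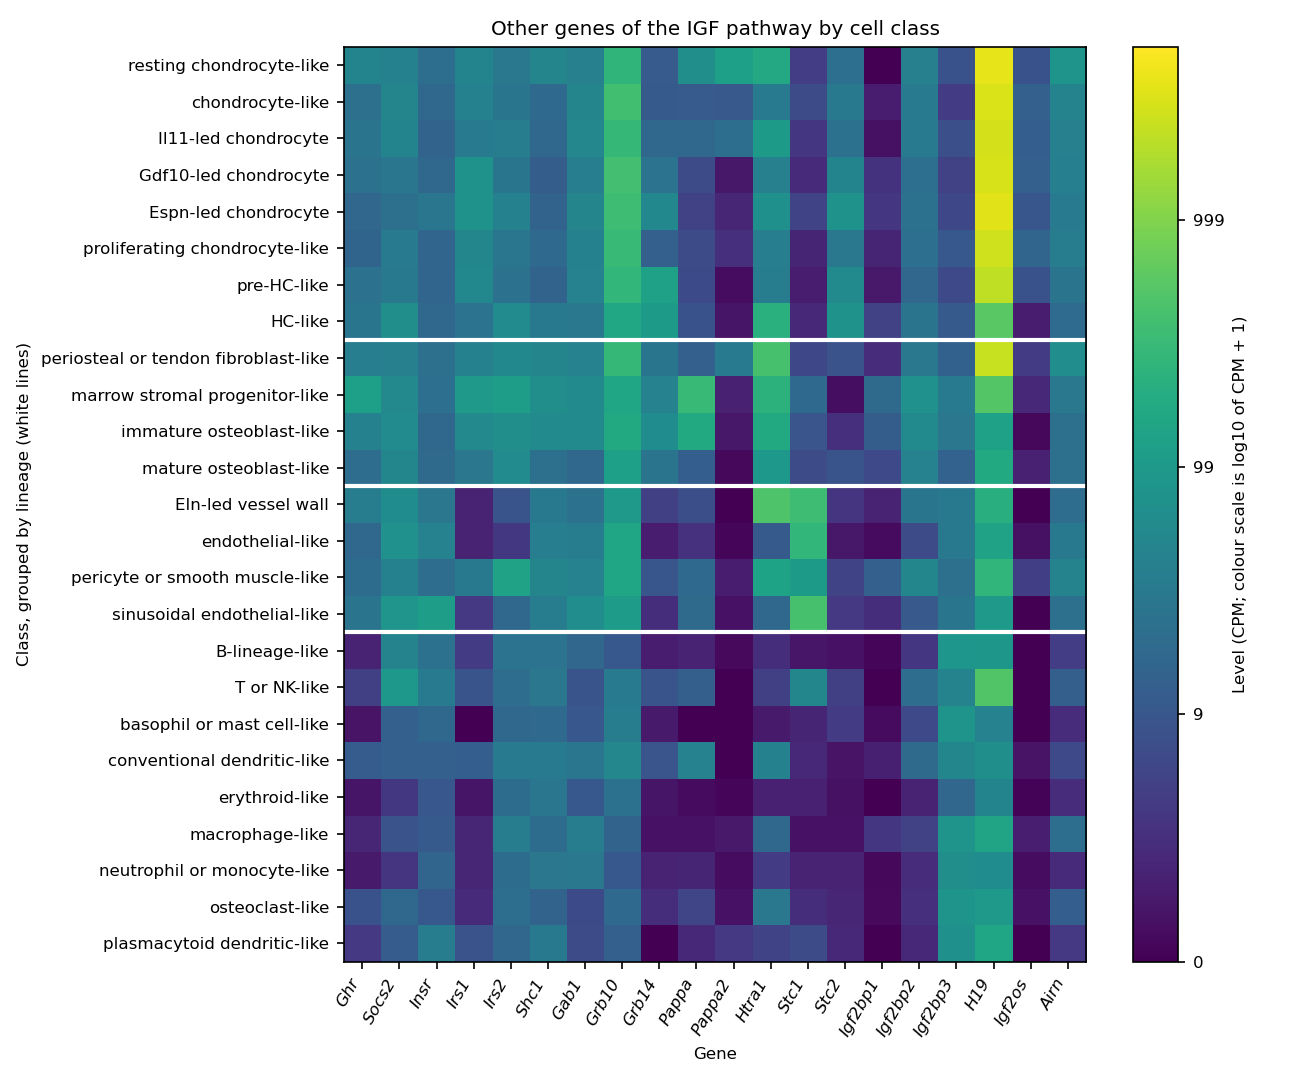
Levels of the 20 other pathway genes with at least 10 CPM in some class (columns) in the 25 classes (rows, grouped by lineage), coloured by log10 of CPM + 1. H19 fills the chondrocyte rows (up to 3673 CPM), Pappa and Ghr are brightest in the marrow stromal progenitor-like row (308 and 121 CPM) and Stc1 in the vessel wall rows (up to 416 CPM).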

How the data were processed

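Single cells of 1 library, from the tibiae of 1 P6 mouse, were profiled on the 10x platform. The authors deposited UMI counts per gene and barcode, made with Cell Ranger 3.1.0 on the mm10 build, to which tdTomato and WPRE had been added, and a second matrix of counts for 98 exogenous sequences. Seurat 3 is also named in the submitters' processing notes. The annotation release was not given in the sources used here, and 30934 gene identifiers matched GENCODE M21.

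Of 14181 barcodes, 8705 had at least 1600 genes, and 8255 cells with at most 10% mitochondrial and 50% ribosomal protein UMIs were kept (2623 to 85279 UMIs per cell). Cells were clustered with scanpy 1.11.5 (2000 variable genes, 30 components, 20 neighbours, Leiden resolution 1.5), without the members, the pathway genes, Mmp genes and Pth1r. Of 38 clusters, 4 with at least 33.3% marked doublets (260 cells) and a Schwann-like cluster of 13 cells stayed outside the classes. Scrublet marked 588 barcodes (4.15%) as doublets, and these were otherwise kept. Clusters were named from 33 marker lists by a rule set after the clusters were seen. Clusters with CD45 (Ptprc), which the study left out, were kept here.

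Counts were summed per class. HC-derived cells had more than 14 WPRE UMIs, as in the study. The named genes were the 10 members, the 3 genes most like each member among genes with at least 50 CPM in some class, and pathway genes with at least 50 CPM. Members and lists were chosen with earlier results of these data known. No test was possible with 1 mouse, and a P56 sample was not analysed here. The summing and ratio steps were tested on simulated data. Alternatives covered the gene and mitochondrial limits, clustering, doublets, denominators, thinning and the HC-derived limit.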

Additional observations from a re-analysis of the deposited data

Results flagged for a closer look

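For 2 binding proteins the ratio of HC-derived over other cells took opposite signs in different osteogenic classes of the same library. The log2 ratio of Igfbp3 was 0.56 in marrow stromal progenitor-like cells and 3.05 in immature osteoblast-like cells, against -1.44 in mature osteoblast-like cells, where both groups were low (3.63 and 11.6 CPM). In that class an Igfbp3 UMI was found in 8 of 149 HC-derived and 18 of 317 other cells before thinning. They held 12 and 71 UMIs, and 21 of the 71 came from 1 cell. The log2 ratio of Igfbp7 was 0.60 in marrow stromal progenitor-like cells and 0.44 in immature osteoblast-like cells, against -0.70 in mature osteoblast-like cells. The share of mature cells with an Igfbp7 UMI before thinning did not follow this ratio, at 28.2% of HC-derived and 25.9% of other cells. These differences between classes were not tested, since all cells came from 1 mouse.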

How the results depend on the processing

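The lineage of the highest class was the same in 96 of 100 pairs of member and setting, and the 4 exceptions were all Igf2r. Its highest class was the fibroblast-like class when cells needed 500 genes, when up to 20% mitochondrial UMIs were allowed, or with 3000 variable genes, and the pericyte class at resolution 2.5. The class name was the same in 75 pairs. At a limit of 5% mitochondrial UMIs, Igf1 and Igfbp5 were highest in the fibroblast-like class, and Igfbp4 in a Cxcl12-led stromal class. Igf1r was highest in pre-HC-like cells with at least 500 genes, up to 20% mitochondrial UMIs or 3000 variable genes. It was highest in the chondrocyte-like class at resolution 1 and in the Gdf10-led class without doublets. Of 120 counts under alternatives, 100 were within 1.5 times the reported count, and no value past the 2-fold limit changed sign. Of the single values, 64 of 100 levels, 55 of 140 HC-derived ratios and 14 of 20 shares lay outside their counting intervals under an alternative, so these intervals do not cover the choice of processing. Members at least 2-fold above the next class numbered 5 with at least 500 genes, at resolution 1, with 3000 variable genes or without doublets, and 1 at a 3-fold limit. Pathway genes highest in the vessel wall numbered 3 with at least 500 genes, at resolution 1 or without doublets, and those highest in blood cells 1 with at least 2000 genes. Members at least 2-fold higher in HC-derived cells numbered 1 with at least 500 genes or at resolution 1. Members at least 2-fold lower numbered 2 with a minimum of 500 or 2000 genes, up to 20% mitochondrial UMIs, resolution 1 or 2.5, 3000 variable genes, no doublets, a total without mitochondrial, ribosomal protein and haemoglobin genes, or at least 1 tdTomato UMI. The causes were not tested.

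The mean log2 ratio of Igfbp5 lay between -1.81 and -1.03 over all alternatives. That of Igf1 lay between -2.43 and 0.28, that of Igfbp3 between -2.38 and 1.11 and that of Igfbp7 between -0.93 and 0.25. Igfbp4 lay between -0.14 and 0.22, Igf1r between -0.06 and 0.26 and Igf2r between -0.23 and 0.11, so the sign of all 6 depended on the setting. At a limit of 5% mitochondrial UMIs, 1 osteogenic class had both groups of cells. No paired analysis was possible because there is 1 library, and for the same reason no replicate could be left out.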
